A study of Homo sapiens with 12 samples.

Results

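The 37 genes described here encode proteins that repair broken or crosslinked DNA by homologous recombination and the Fanconi anaemia pathway. They were chosen by name from the 38021 gene names of one count table, and all 37 were among the 16838 genes with enough counts to test. The counts came from 12 RNA-seq libraries of 786-O cells, a clear cell renal cell carcinoma line that lacks functional VHL, and of WT8 cells, a single line derived from 786-O that expresses wildtype VHL, the ubiquitin ligase subunit that marks HIF proteins for degradation. Cells of both lines carried a lentiviral pLKO.1 short hairpin RNA and were selected and kept in puromycin, either a scrambled control (shControl) or a hairpin against BMAL1 (shBMAL1), a transcription factor of the circadian clock. The 4 groups were 786-O shControl, 786-O shBMAL1, WT8 shControl and WT8 shBMAL1, with 3 replicates each that the labels call biological, and whether these were separate infections is not stated, so p-values measure the spread between these cultures. Since WT8 is one derived line, VHL and any other difference between the lines cannot be told apart here.

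Homologous recombination repairs a double-strand break by copying an intact sister chromatid, which exists only once DNA has been replicated. The MRN complex binds the broken end, nucleases and helicases resect it to single-stranded DNA, BRCA1, PALB2 and BRCA2 prepare it for pairing, and the XRCC2, XRCC3 and RAD54 proteins help it to invade the sister. In the Fanconi pathway a core complex attaches ubiquitin to FANCD2 and FANCI at a crosslink, which opens the way for nucleases and recombination. Many of these genes are known to be transcribed mainly from late G1 to G2 of the cell cycle.

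Library totals ran from 33182025 to 36477509 counts, and members had at least 36 counts in every library. CPM below is the count scaled to one common library total. The gene symbol of BMAL1 in the table is ARNTL, which had 12.1 ± 1.37 CPM in 786-O shControl, 3.94 ± 0.220 in 786-O shBMAL1, 9.24 ± 0.967 in WT8 with shControl and 1.66 ± 0.236 in WT8 with shBMAL1 (SD, n = 3 here and below). VHL was at 18.8 ± 1.58 and 19.4 ± 1.62 CPM in the 786-O groups and at 981 ± 56.5 and 647 ± 15.0 CPM in the WT8 groups. All 8 renal and carcinoma markers were detected in every library, from CDH16 (8.27 CPM or more) to VIM (1790 CPM or more). With shBMAL1 all 8 were lower in WT8 (median log2 change −0.52), where CDH16 went from 73.6 to 9.21 CPM. In 786-O 5 were higher and 2 lower, and CDH6 went from 185 to 515 CPM. Of the leukocyte and endothelial markers, CD3E was at 0 in every library and PTPRC and CDH5 reached at most 0.0266 and 0.256 CPM. CD14, PECAM1 and VWF had their highest means in WT8 shControl (0.436, 0.701 and 0.442 CPM). The part of these markers in the results was not tested.

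To show what the promoters of these genes look like, 5 are printed from RefSeq, for genes at the ends and in the middle of the range of responses described below. Each runs from 150 bases before to 10 bases from the annotated start on GRCh38.p14, 5′ to 3′ on the strand of the gene. Capitals mark matches, on either strand, to CCAAT, to the E2F-type motifs TTTGGCGC, TTTCGCGC, TTTCCCGC and TTTGCCGC, to the CHR motifs TTTGAA and TTCGAA, to the E-box CACGTG that clock factors can bind, and to the core letters ACGTG and GCGTG of a hypoxia response element (HRE), which every E-box also contains. BRIP1, among the strongest responses, BRCA2 and RAD50, which hold an E-box, FANCC with an E2F match, and ATM, which was not called with shBMAL1 in WT8, are shown. The E-box of FANCC lies past the printed stretch.
BRIP1 (chr17:61863519-61863678, minus strand): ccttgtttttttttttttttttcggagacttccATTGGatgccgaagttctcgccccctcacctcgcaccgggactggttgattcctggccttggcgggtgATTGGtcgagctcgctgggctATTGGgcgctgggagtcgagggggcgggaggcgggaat
BRCA2 (chr13:32315358-32315517, plus strand): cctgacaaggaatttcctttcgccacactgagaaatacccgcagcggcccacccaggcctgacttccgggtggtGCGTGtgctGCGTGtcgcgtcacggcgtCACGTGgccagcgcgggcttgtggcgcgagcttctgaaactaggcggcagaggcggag
FANCC (chr9:95317700-95317859, minus strand): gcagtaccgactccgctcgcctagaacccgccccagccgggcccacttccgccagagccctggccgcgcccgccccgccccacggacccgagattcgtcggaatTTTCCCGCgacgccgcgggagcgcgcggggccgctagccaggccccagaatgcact
RAD50 (chr5:132556827-132556986, plus strand): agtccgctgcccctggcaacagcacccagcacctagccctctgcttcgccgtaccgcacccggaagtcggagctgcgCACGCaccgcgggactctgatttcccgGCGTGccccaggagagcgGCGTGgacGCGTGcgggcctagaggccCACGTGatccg
ATM (chr11:108222917-108223076, plus strand): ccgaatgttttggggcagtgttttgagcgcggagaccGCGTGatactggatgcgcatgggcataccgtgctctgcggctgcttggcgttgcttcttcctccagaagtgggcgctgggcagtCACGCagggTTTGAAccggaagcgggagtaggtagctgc

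Of the 37 genes, 34 matched a promoter window of 300 bases (250 before and 50 after the start), and RAD54B, NBN and FANCI did not. A gene with several annotated starts was counted once if any of its windows held the motif, among members and tested genes alike. Shares of all windows, given last below, count each window by itself. They are not directly comparable with shares of genes. An E2F-type match lay in 5 of the 34 (14.7%), namely FANCA, FANCC, FANCD2, EXO1 and XRCC2, against 6.23% of the 11630 tested genes with a window and 3.31% of all 35116 windows. CCAAT lay in 16 (47.1%, against 42.4% and 34.6%), CHR in 5 (14.7%, against 15.5% and 16.4%), the E-box in 3 (8.82%, against 12.2% and 7.26%) and the HRE letters in 24 (70.6%, against 67.8% and 48.4%). The 3 genes with an E-box, BRCA2, FANCC and RAD50, had log2 changes with shBMAL1 in WT8 of 2.71, 1.09 and 0.19, which spans most of the range of the whole set. A match is a run of letters only, and binding was not measured in these libraries.

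The set as a whole had a low level in a single group, WT8 shControl. The mean log2 CPM over the 37 genes was 4.99 ± 0.02 in 786-O shControl, 4.97 ± 0.02 in 786-O shBMAL1, 3.21 ± 0.03 in WT8 with shControl and 4.82 ± 0.02 in WT8 with shBMAL1. Their summed level was 1642 ± 26.7, 1553 ± 21.9, 662 ± 19.4 and 1392 ± 20.03 CPM in the same order. The 3 WT8 shControl libraries lay apart from the other 9 in both measures. The mean over 36 genes of S phase and G2/M, none of them a member, was also low only in WT8 shControl, with log2 CPM of 7.25 ± 0.01, 7.34 ± 0.01, 4.81 ± 0.02 and 7.27 ± 0.01 in the same order. Between the 786-O groups this mean was slightly higher with shBMAL1. The summed level of the 37 genes was lower there, but a sum gives most weight to abundant genes. Their mean log2 CPM hardly differed (4.99 ± 0.02 and 4.97 ± 0.02). In bulk RNA, fewer dividing cells and less of a transcript in each cell cannot be told apart.

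**Figure D1:**
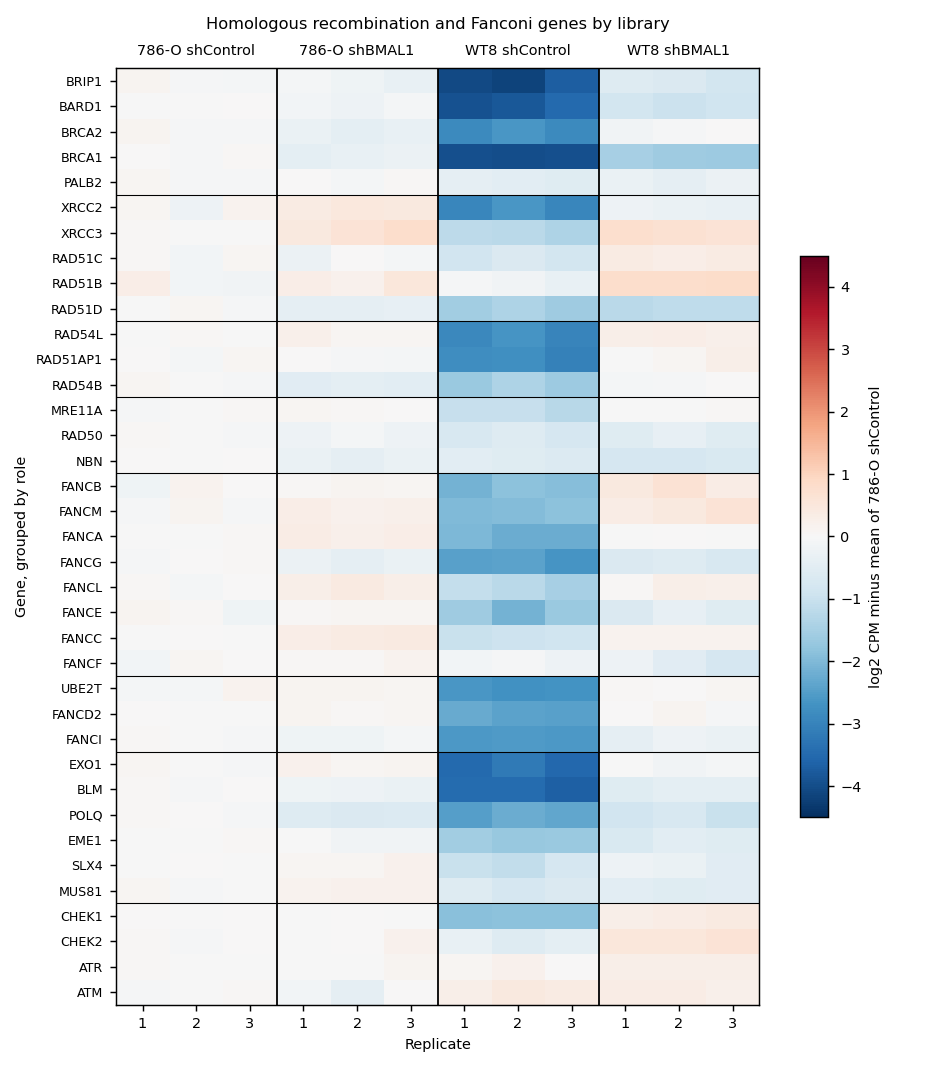
Heat map of log2 CPM of each of the 37 genes (rows, grouped by role) in each of the 12 libraries (columns, by group and replicate), as the difference from the gene's mean in 786-O shControl (blue lower, red higher). The 3 WT8 shControl columns are blue for most rows. Other rows are pale there, ATM, ATR, FANCF and RAD51B among them. Between the shControl groups 12 genes differed under 2-fold, of which 7 differed under 1.5-fold.

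The first question was how shBMAL1 and shControl cultures differed in each line. The labels name no other hairpin against BMAL1, so loss of BMAL1 and other effects of the hairpin cannot be told apart here. In WT8, 34 of the 37 genes were higher with shBMAL1, 2 were lower (NBN and FANCF) and 1, ATM, was not called (edgeR quasi-likelihood F test, Benjamini-Hochberg adjusted p under 0.1 over all 16838 genes). Of all genes tested, 69.8% were called in that comparison and 32.9% were called higher. The median log2 change was 1.51, beside −0.04 for all genes tested, and single changes ran from −0.34 to 3.29. By size, 16 of the 37 changed over 4-fold, 11 between 2- and 4-fold and 10 less than 2-fold.

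In 786-O, 7 of the 37 genes were higher with shBMAL1, 12 were lower and 18 were not called, beside 48.9% of all genes tested that were called, 24.5% higher and 24.4% lower. The median log2 change was 0.03, against 0.00 for all genes, and the range was −0.62 to 0.63. The 7 that rose were XRCC2, XRCC3, FANCA, FANCC, FANCL, FANCM and MUS81, and all 7 also rose in WT8. The 12 that fell were BRCA1, BRCA2, BRIP1, RAD51D, RAD54B, RAD50, NBN, FANCG, FANCI, BLM, POLQ and ATM, of which 10 rose in WT8, NBN fell there and ATM was not called. Only 2 of the 19 called genes, XRCC3 and POLQ, changed over 1.5-fold.

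The difference between the lines was tested directly as an interaction, the WT8 log2 change minus the 786-O one. It was above 0 for 33 genes, below 0 for FANCF and not called for PALB2, MUS81 and ATM. The calls of NBN and ATR were lost with DESeq2 (adjusted p = 0.117 and 0.130), which left 32 of the 34. Among all genes tested, 56% were called for the interaction and 27.4% were called above 0. The median interaction of the 37 genes was 1.86, against −0.03 for all genes.

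**Figure D2:**
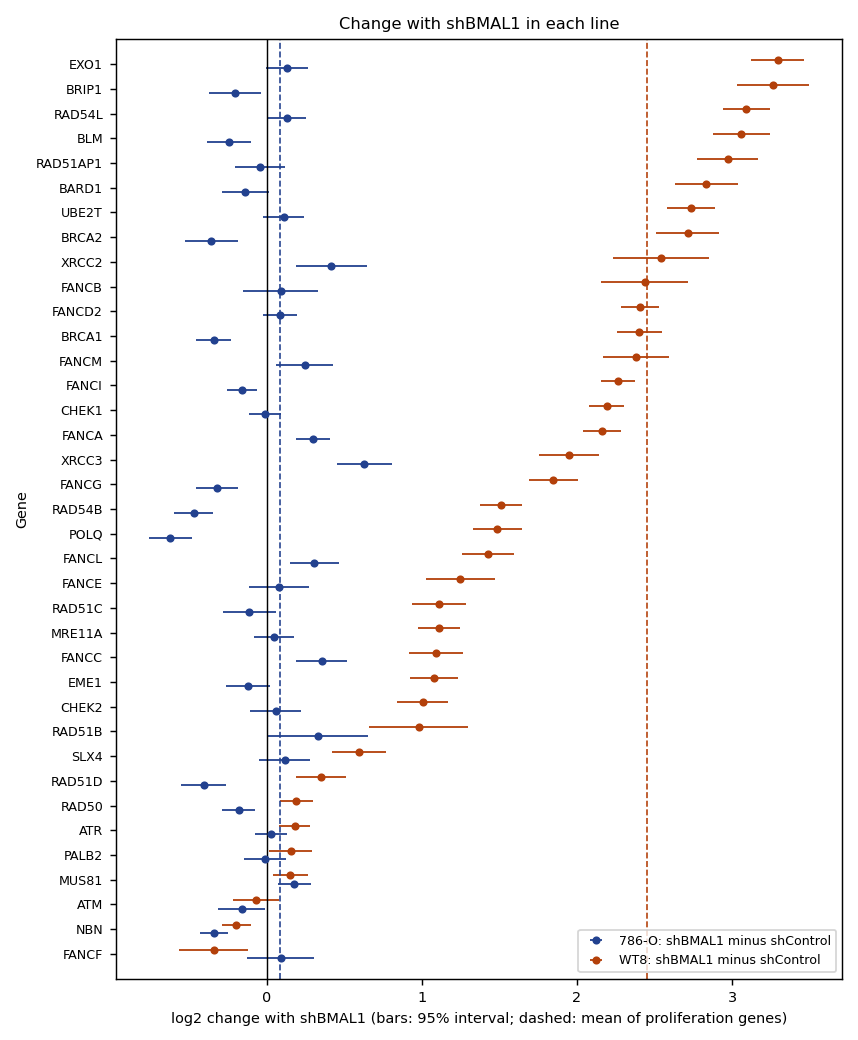
Log2 change with shBMAL1 (horizontal axis) for each of the 37 genes (rows, ordered by the WT8 value) in 786-O (blue) and WT8 (orange), with 95% intervals as bars and the mean change of the 36 proliferation genes as dashed lines. The 786-O points lie between −0.62 and 0.63, while the WT8 points run from −0.34 (FANCF) to 3.29 (EXO1).

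The BRCA proteins form a scaffold at resected DNA. BRCA1 (GRCh37 chromosome 17, 41196312 to 41322262), a ubiquitin ligase and scaffold, had 84.3, 81.8 and 86.6 CPM in the 3 libraries of 786-O shControl, 62.9, 66.7 and 69.98 in 786-O shBMAL1, 5.44, 5.28 and 5.41 in WT8 with shControl and 30.01, 27.9 and 27.4 in WT8 with shBMAL1. No group overlapped another, and WT8 shBMAL1 lay between WT8 shControl and both 786-O groups. The change with shBMAL1 was 5.29-fold upward in WT8 (log2 change 2.40, SE 0.07, adjusted p = 2.5e-25) and 1.27-fold downward in 786-O (log2 change −0.34, SE 0.06, adjusted p = 7.43e-06). Between the shBMAL1 groups BRCA1 was still lower in WT8 (log2 change −1.23, SE 0.06, adjusted p = 1.63e-19), the largest difference of any member in that comparison.

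BARD1, the obligate partner of BRCA1, had 31.6, 31.5 and 32.3 CPM in 786-O shControl, 29.5, 27.2 and 30.1 in 786-O shBMAL1, 2.09, 2.26 and 2.8 in WT8 with shControl and 17.9, 16.3 and 17 in WT8 with shBMAL1. It rose 7.13-fold in WT8 (log2 change 2.83, SE 0.10, adjusted p = 3.65e-23) and was not called in 786-O (log2 change −0.14, SE 0.08, adjusted p = 0.156). BRIP1, a helicase that binds BRCA1, had 32.2, 28.1 and 27.8 CPM in 786-O shControl, 27.6, 25.6 and 23.3 in 786-O shBMAL1, 1.77, 1.62 and 2.26 in WT8 with shControl and 19.5, 18.4 and 16.6 in WT8 with shBMAL1. Its WT8 change was 9.61-fold (log2 change 3.26, SE 0.12, adjusted p = 3.3e-23), and its interaction of 3.47 on the log2 scale (SE 0.15, adjusted p = 9.54e-21) was the largest of the 37. In 786-O the small fall of BRIP1 (log2 change −0.20, SE 0.09, adjusted p = 0.0561) was not called without shControl replicate 1, shBMAL1 replicate 2 or shBMAL1 replicate 3 (adjusted p = 0.297, 0.103 and 0.243).

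BRCA2 (GRCh37 chromosome 13, 32889223 to 32974405), which acts on the resected single-stranded DNA, had 23.1, 20.9 and 20.4 CPM in 786-O shControl, 17.6, 15.8 and 17 in 786-O shBMAL1, 2.91, 3.51 and 2.96 in WT8 with shControl and 19, 20.7 and 21.8 in WT8 with shBMAL1. The WT8 shControl libraries were the low ones, and the others lay within 15.8 to 23.1 CPM. BRCA2 rose 6.56-fold in WT8 (log2 change 2.71, SE 0.10, adjusted p = 1.37e-22) and was 1.28-fold lower with shBMAL1 in 786-O (log2 change −0.36, SE 0.09, adjusted p = 0.000942). PALB2 joins BRCA2 to BRCA1. Its CPM was 35.6, 32.2 and 32.4 in 786-O shControl, 33.4, 31.7 and 34.5 in 786-O shBMAL1, 25.4, 23.9 and 22.9 in WT8 with shControl and 27.3, 25.4 and 27.8 in WT8 with shBMAL1, so its whole range over 12 libraries was under 2-fold. The change in WT8 was 1.11-fold (log2 change 0.15, SE 0.07, adjusted p = 0.0544), a call that was lost without WT8 shBMAL1 replicate 1, WT8 shBMAL1 replicate 3 or WT8 shControl replicate 3 (adjusted p = 0.112, 0.157 and 0.187), and the interaction was not called (log2 difference 0.16, adjusted p = 0.175).

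**Figure D3:**
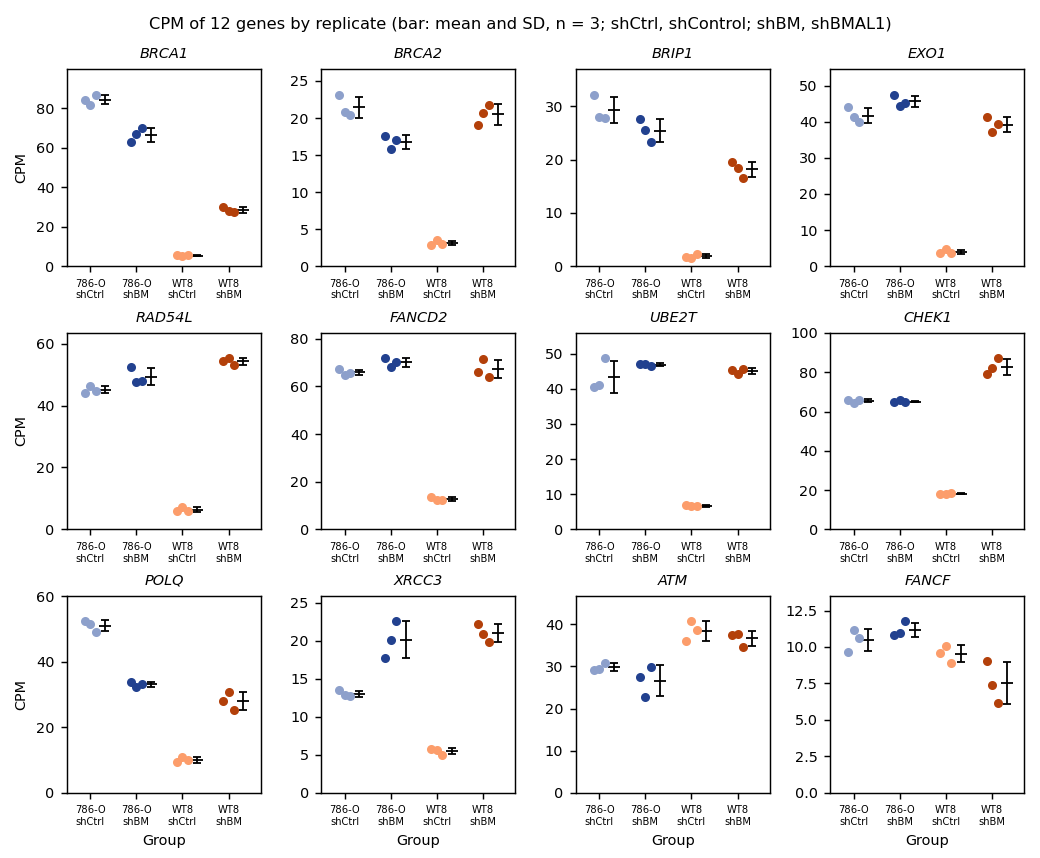
CPM (vertical axis, from 0) of 12 of the genes in each replicate (points) of the 4 groups (horizontal axis), with the mean and SD beside them. BRCA1, BRCA2, BRIP1, EXO1, RAD54L, FANCD2, UBE2T, CHEK1, POLQ and XRCC3 are lowest in WT8 shControl. Between the 786-O groups POLQ and XRCC3 differ most, and BRCA1, BRCA2, BRIP1 and ATM were also called. ATM and FANCF vary little by comparison.

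XRCC2, XRCC3, RAD51B, RAD51C and RAD51D form complexes that aid strand exchange. All 5 rose with shBMAL1 in WT8, with a median log2 change of 1.11. XRCC2 had 7.85, 6.41 and 8.27 CPM in 786-O shControl, 9.56, 10.3 and 10.2 in 786-O shBMAL1, 0.979, 1.22 and 0.979 in WT8 with shControl and 6.41, 6.12 and 5.97 in WT8 with shBMAL1, and was higher with shBMAL1 in both lines (log2 change 0.42 with SE 0.12 in 786-O and 2.54 with SE 0.16 in WT8, adjusted p = 0.00397 and 2.09e-16). XRCC3 showed the largest rise of any member in 786-O. It had 13.4, 12.8 and 12.8 CPM in 786-O shControl, 17.7, 20.1 and 22.5 in 786-O shBMAL1, 5.68, 5.63 and 4.98 in WT8 with shControl and 22.2, 20.9 and 19.8 in WT8 with shBMAL1, which is 1.55-fold higher in 786-O (log2 change 0.63, SE 0.09, adjusted p = 5.4e-07) and 3.86-fold higher in WT8 (log2 change 1.95, SE 0.10, adjusted p = 6.59e-19). The shBMAL1 groups of the lines overlapped for XRCC3 (adjusted p = 0.561). XRCC3 lies against KLC1 on the opposite strand, and 17 of the 37 genes overlap a coding gene in this way. Whether reads were counted by strand is not stated, so part of the reads of such genes may belong to the other strand.

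RAD51C, shared by both complexes of this group, had 18.8, 16.6 and 19.5 CPM in 786-O shControl, 15.3, 18.4 and 17.1 in 786-O shBMAL1, 10.03, 11.7 and 10.4 in WT8 with shControl and 23.6, 22.3 and 23.4 in WT8 with shBMAL1. It rose 2.16-fold in WT8 (log2 change 1.11, SE 0.09, adjusted p = 2.14e-13) to a level above every 786-O library. RAD51B rose in WT8 from 2.51 ± 0.234 to 4.96 ± 0.0573 CPM (log2 change 0.98, SE 0.16, adjusted p = 2.59e-06). RAD51D rose 1.27-fold in WT8 (log2 change 0.35, SE 0.08, adjusted p = 0.000303) and fell in 786-O (log2 change −0.41, SE 0.07, adjusted p = 2.55e-05). RAD51D is among the 5 members that overlap a coding gene on the same strand, which counting by strand could not separate, with RAD54B, RAD50, FANCG and CHEK1.

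The strand invasion partners were among the strongest responses in WT8, with a median log2 change of 2.97 over 3 genes. RAD54L, a motor protein that acts during strand invasion, had 44.2, 46.3 and 44.9 CPM in 786-O shControl, 52.6, 47.7 and 47.9 in 786-O shBMAL1, 6.09, 7.22 and 5.82 in WT8 with shControl and 54.4, 55.3 and 53.2 in WT8 with shBMAL1. WT8 shBMAL1 thus lay 8.52-fold above WT8 shControl (log2 change 3.09, SE 0.08, adjusted p = 2.93e-28) and above all 786-O libraries. RAD54L was not called in 786-O (log2 change 0.13, SE 0.06, adjusted p = 0.102), although its groups did not overlap there, and it was called without 786-O shBMAL1 replicate 2, WT8 shControl replicate 2 or WT8 shControl replicate 3 (adjusted p = 0.0921, 0.0724 and 0.0907). RAD51AP1, which stimulates strand invasion, had 26.3, 24.3 and 27.4 CPM in 786-O shControl, 26.1, 25.2 and 24.2 in 786-O shBMAL1, 3.75, 3.83 and 3.13 in WT8 with shControl and 25.3, 27.5 and 31.3 in WT8 with shBMAL1. It rose 7.85-fold in WT8 (log2 change 2.97, SE 0.10, adjusted p = 2.78e-24) and was not called in 786-O (log2 change −0.04, SE 0.08, adjusted p = 0.711). RAD54B, a relative of RAD54L, fell in 786-O from 57 ± 3.1 to 41.1 ± 0.745 CPM (log2 change −0.47, SE 0.07, adjusted p = 2.36e-07) and rose in WT8 from 19.4 ± 2.11 to 55.2 ± 2.01 (log2 change 1.51, SE 0.07, adjusted p = 2.29e-20).

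The MRN complex senses the broken end, and in WT8 MRE11A and RAD50 rose with shBMAL1 while NBN fell. MRE11A, the nuclease, had 37.5, 39.1 and 40.9 CPM in 786-O shControl, 41.3, 40.1 and 39.8 in 786-O shBMAL1, 19, 19.1 and 16.6 in WT8 with shControl and 39, 38.5 and 40.5 in WT8 with shBMAL1, and rose 2.16-fold in WT8 (log2 change 1.11, SE 0.07, adjusted p = 1.86e-16). RAD50, the long coiled-coil subunit, had 127, 120.5 and 118 CPM in 786-O shControl, 104, 114 and 105 in 786-O shBMAL1, 74.9, 80.8 and 72.7 in WT8 with shControl and 83.7, 94.2 and 82.8 in WT8 with shBMAL1. It rose 1.14-fold in WT8 (log2 change 0.19, SE 0.05, adjusted p = 0.00259) and fell in 786-O (log2 change −0.18, SE 0.05, adjusted p = 0.00599). NBN, the adaptor that recruits ATM, was highest in 786-O shControl at 181 ± 2.7 CPM, then 143 ± 5.96 in 786-O shBMAL1, 124 ± 6.17 in WT8 with shControl and 108 ± 4.25 in WT8 with shBMAL1. It is the only member that fell with shBMAL1 in both lines (log2 change −0.34, SE 0.05, adjusted p = 2.32e-07 in 786-O, and log2 change −0.20, SE 0.05, adjusted p = 0.000492 in WT8).

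Of the 8 Fanconi core complex genes, 7 rose in WT8 (median log2 change 1.64) and FANCF fell, while in 786-O 4 rose, FANCG fell and 3 were not called. FANCA had 68.4, 68.5 and 71.1 CPM in 786-O shControl, 88.1, 82.1 and 85.8 in 786-O shBMAL1, 17.2, 14.6 and 14.8 in WT8 with shControl and 69, 71 and 68.3 in WT8 with shBMAL1, a 4.47-fold rise in WT8 (log2 change 2.16, SE 0.06, adjusted p = 2.15e-26) and a 1.23-fold rise in 786-O (log2 change 0.30, SE 0.06, adjusted p = 2.91e-05). FANCM, the helicase that brings the complex to DNA, had 11.6, 13.1 and 11.7 CPM in 786-O shControl, 15, 13.9 and 14.2 in 786-O shBMAL1, 3.07, 3.16 and 3.4 in WT8 with shControl and 15.3, 16.6 and 18.3 in WT8 with shBMAL1, and rose 5.2-fold in WT8 (log2 change 2.38, SE 0.11, adjusted p = 2.49e-20). Its 786-O rise (log2 change 0.25, adjusted p = 0.034) was not called without shBMAL1 replicate 1, shControl replicate 1 or shControl replicate 3 (adjusted p = 0.120, 0.111 and 0.102). FANCL, the ubiquitin ligase of the complex, had 27, 24.9 and 26.8 CPM in 786-O shControl, 31.9, 34.4 and 31.3 in 786-O shBMAL1, 12.4, 11.3 and 9.43 in WT8 with shControl and 27.2, 31.2 and 30.6 in WT8 with shBMAL1, with rises of 1.24-fold and 2.69-fold in 786-O and WT8 (adjusted p = 0.002 and 9.24e-17).

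FANCC, whose promoter is printed above, had 13.6, 13.8 and 13.4 CPM in 786-O shControl, 16.8, 17.4 and 18 in 786-O shBMAL1, 6.88, 7.19 and 7.34 in WT8 with shControl and 15, 15.2 and 15.3 in WT8 with shBMAL1, so shBMAL1 libraries lay above shControl libraries in each line (log2 change 0.35 with SE 0.08 in 786-O and 1.09 with SE 0.09 in WT8, adjusted p = 0.00071 and 3.9e-13). FANCB, FANCE and FANCG rose in WT8 by 5.41-, 2.38- and 3.6-fold (adjusted p = 4.01e-17, 6.75e-12 and 7.87e-21). FANCF (GRCh37 chromosome 11, 22644079 to 22647369) was the one core gene that fell in WT8. It had 9.69, 11.2 and 10.6 CPM in 786-O shControl, 10.8, 10.9 and 11.8 in 786-O shBMAL1, 9.6, 10.1 and 8.92 in WT8 with shControl and 9.01, 7.41 and 6.13 in WT8 with shBMAL1, and the WT8 groups overlapped. The fall in WT8 (log2 change −0.34, SE 0.11, adjusted p = 0.00927) and the negative interaction (log2 difference −0.43, adjusted p = 0.0228) were both lost without WT8 shBMAL1 replicate 3 (adjusted p = 0.116 and 0.114).

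The targets of the core complex and their conjugating enzyme rose together in WT8, with log2 changes between 2.26 and 2.74. FANCD2 had 67.1, 65 and 65.5 CPM in 786-O shControl, 71.8, 68 and 70.3 in 786-O shBMAL1, 13.5, 12.4 and 12.1 in WT8 with shControl and 66.2, 71.6 and 64 in WT8 with shBMAL1. FANCI, its partner in the clamp that is ubiquitinated, had 147, 139 and 138 CPM in 786-O shControl, 122, 123 and 133 in 786-O shBMAL1, 23.3, 24.3 and 23.5 in WT8 with shControl and 107, 121 and 114 in WT8 with shBMAL1. UBE2T, the enzyme that passes ubiquitin to them, had 40.6, 41.1 and 48.7 CPM in 786-O shControl, 47.2, 46.9 and 46.6 in 786-O shBMAL1, 7.04, 6.58 and 6.66 in WT8 with shControl and 45.5, 44.2 and 45.6 in WT8 with shBMAL1. Each of the 3 genes was at least 4-fold lower in WT8 shControl than in any other group, and the WT8 rises were 5.3-, 4.8- and 6.66-fold (adjusted p = 1.85e-27, 2.31e-28 and 2.15e-26). In 786-O, FANCI fell (log2 change −0.16, SE 0.05, adjusted p = 0.00912), while FANCD2 (log2 change 0.09, adjusted p = 0.214) and UBE2T (log2 change 0.11, adjusted p = 0.19) were not called. UBE2T passed the test without 786-O shControl replicate 3, its highest library in that group (log2 change 0.20, adjusted p = 0.0211).

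Among the helicases and nucleases, EXO1 (GRCh37 chromosome 1, 242011269 to 242058450) and BLM, which act together in long-range resection, were among the strongest responses. EXO1 had 44, 41.2 and 39.95 CPM in 786-O shControl, 47.4, 44.5 and 45.2 in 786-O shBMAL1, 3.72, 4.64 and 3.64 in WT8 with shControl and 41.2, 37.1 and 39.3 in WT8 with shBMAL1, a 9.81-fold rise in WT8 that was the largest of the 37 (log2 change 3.29, SE 0.09, adjusted p = 1.97e-27). In 786-O EXO1 was not called (log2 change 0.13, SE 0.07, adjusted p = 0.124), but it was called without 786-O shControl replicate 1 or WT8 shControl replicate 2 (adjusted p = 0.0831 and 0.0911). BLM had 33.8, 31.8 and 33.3 CPM in 786-O shControl, 28.9, 28.2 and 26.5 in 786-O shBMAL1, 2.99, 2.96 and 2.58 in WT8 with shControl and 22.8, 24 and 24.4 in WT8 with shBMAL1, and its rise in WT8 was 8.34-fold (log2 change 3.06, SE 0.09, adjusted p = 1.47e-25) against a fall in 786-O (log2 change −0.24, SE 0.07, adjusted p = 0.00637).

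MUS81, EME1 and SLX4 belong to nucleases that cut joined or crosslinked DNA. MUS81 had 73.4, 67.5 and 68.2 CPM in 786-O shControl, 77.7, 79.6 and 79.3 in 786-O shBMAL1, 46.6, 40.9 and 44.5 in WT8 with shControl and 50.05, 48 and 48.8 in WT8 with shBMAL1. It rose in both lines (1.13-fold and 1.11-fold, adjusted p = 0.00792 and 0.0171), the interaction was −0.02 on the log2 scale (SE 0.08) and not called, and the WT8 call was lost without WT8 shControl replicate 2 (adjusted p = 0.127). EME1, the partner of MUS81, rose 2.11-fold in WT8 (log2 change 1.08, SE 0.08, adjusted p = 2.39e-14). SLX4, a platform for several nucleases, had 22.8, 23.3 and 22.5 CPM in 786-O shControl, 24, 24.1 and 26.3 in 786-O shBMAL1, 11.3, 10.7 and 13.4 in WT8 with shControl and 19.4, 18.4 and 15.9 in WT8 with shBMAL1, and rose 1.51-fold in WT8 (log2 change 0.60, SE 0.09, adjusted p = 3.96e-07).

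POLQ encodes the polymerase of microhomology-mediated end joining, a route that competes with recombination for resected ends. It had 52.3, 51.4 and 49 CPM in 786-O shControl, 33.9, 32.3 and 33.1 in 786-O shBMAL1, 9.22, 10.8 and 9.95 in WT8 with shControl and 27.9, 30.7 and 25.4 in WT8 with shBMAL1. POLQ showed the largest fall of any member in 786-O (1.54-fold, log2 change −0.62, SE 0.07, adjusted p = 4.78e-09), with no overlap between the groups. In WT8 it rose 2.8-fold (log2 change 1.49, SE 0.08, adjusted p = 2.86e-18), to a level below all 786-O shControl libraries. With TMM scaling that level also lay below those of 786-O shBMAL1.

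The checkpoint kinases signal that DNA is damaged. ATM (GRCh37 chromosome 11, 108093771 to 108239829), the kinase activated by breaks, had 29.1, 29.5 and 30.9 CPM in 786-O shControl, 27.4, 22.7 and 29.9 in 786-O shBMAL1, 35.9, 40.7 and 38.7 in WT8 with shControl and 37.6, 37.8 and 34.6 in WT8 with shBMAL1. Every WT8 library lay above every 786-O library, and with shControl ATM was higher in WT8 than in 786-O (log2 change 0.37, SE 0.08, adjusted p = 6.37e-05). In WT8 it was not called with shBMAL1 (log2 change −0.07, SE 0.08, adjusted p = 0.44), and its small fall in 786-O (log2 change −0.16, adjusted p = 0.0969) was lost without any one of 6 libraries, all but shBMAL1 replicate 3 among the 786-O libraries and also WT8 shControl replicate 3 (adjusted p = 0.104 to 0.609). That call was also lost with DESeq2 (adjusted p = 0.144), with its size factors in edgeR (0.124) and with library totals (0.123). ATR, the kinase activated by single-stranded DNA, had 86.8, 82.8 and 83.3 CPM in 786-O shControl, 83.4, 83.1 and 91.4 in 786-O shBMAL1, 89.9, 95.4 and 84.5 in WT8 with shControl and 102, 102 and 102 in WT8 with shBMAL1, a rise of 1.13-fold in WT8 (log2 change 0.18, SE 0.05, adjusted p = 0.00223).

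CHEK1, the effector kinase of ATR, had 66.1, 64.5 and 65.8 CPM in 786-O shControl, 64.9, 65.6 and 64.7 in 786-O shBMAL1, 17.8, 18.1 and 18.4 in WT8 with shControl and 78.9, 82 and 87.1 in WT8 with shBMAL1, so it was 4.57-fold higher in WT8 with shBMAL1 (log2 change 2.19, SE 0.06, adjusted p = 1.25e-27) and was not called in 786-O (adjusted p = 0.922). CHEK2, the effector kinase of ATM, had 17.1, 16 and 16.6 CPM in 786-O shControl, 16.3, 16.6 and 18.8 in 786-O shBMAL1, 13, 11 and 12.2 in WT8 with shControl and 23.7, 23.7 and 25.3 in WT8 with shBMAL1. Its WT8 rise was 2.01-fold (log2 change 1.01, SE 0.08, adjusted p = 7.69e-13), to a level above every 786-O library.

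The second question was how the lines differed under the same hairpin. With shControl, 33 of the 37 genes were lower in WT8 than in 786-O, ATM and ATR were higher, and RAD51B and FANCF were not called, beside 79.5% of all genes tested that were called and 40.1% that were called lower. The median log2 difference was −1.78 (0.00 for all genes), and it ran from −3.97 for BRCA1 (15.7-fold lower) and −3.95 for BRIP1 to 0.37 for ATM. The ATR call (log2 difference 0.09, adjusted p = 0.097) rested on overlapping groups and was lost without any one of 7 libraries, 2 of 786-O shControl (replicates 2 and 3), 2 of WT8 shControl (replicates 1 and 2), 2 of WT8 shBMAL1 (replicates 2 and 3) and 786-O shBMAL1 replicate 1 (adjusted p = 0.101 to 0.422). This comparison and the WT8 comparison share the WT8 shControl libraries, so the low values of that one group enter both.

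With shBMAL1 in both lines, the levels in the lines lay closer together. Of the 37 genes, 12 were higher in WT8, 20 were lower and 5 were not called (XRCC3, MRE11A, FANCL, FANCD2 and UBE2T), beside 73% of all genes tested that were called, 35.9% higher and 37.1% lower. The median log2 difference was −0.20. With library totals in place of TMM scaling it was −0.092, and the calls of BLM, EXO1, FANCC and FANCI were lost. Only BRCA1 (2.34-fold lower) differed over 2-fold. After BRCA1 the largest differences were those of BARD1 (−0.76), RAD51D (−0.76), XRCC2 (−0.70) and MUS81 (−0.69), all lower in WT8. With TMM scaling all 6 helicase, nuclease and polymerase genes were lower in WT8 shBMAL1 than in 786-O shBMAL1. BLM and EXO1 were not called with library totals (adjusted p = 0.124 and 0.127). All 4 checkpoint kinases were higher, by log2 values of 0.24 for ATR, 0.35 for CHEK1, 0.46 for ATM and 0.49 for CHEK2. The higher calls of RAD51AP1 and RAD54L there were small (log2 differences 0.15 and 0.14, adjusted p = 0.0959 and 0.0573). They were lost without any one of 5 and 3 libraries (adjusted p = 0.102 to 0.488 and 0.123 to 0.178). That of RAD51AP1 was also lost with no filter on low counts and with the replicate block (adjusted p = 0.112 and 0.114).

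The third question was how far the genes followed overall proliferation. The 36 proliferation genes (18 of S phase and 18 of G2/M) were all higher with shBMAL1 in WT8 (median log2 change 2.33) and all lower in WT8 shControl than in 786-O shControl (−2.38), while in 786-O 15 were higher, 5 were lower and 16 were not called (0.07). To place each member against them, the same test was run with the mean log2 CPM of these 36 genes in each library taken out, so that a value of 0 means a change as large as the mean of the proliferation genes. That mean moved by 2.45 in WT8 with shBMAL1, by 0.08 in 786-O, by −2.44 between the shControl groups and by −0.07 between the shBMAL1 groups. A gene with no change of its own is called lower on this scale in WT8, as almost all genes of the table were. The SE on this scale leaves out the error of the proliferation mean.

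On that scale, 8 of the 37 genes rose more than the proliferation mean in WT8. A further 24 rose less (or did not rise) and 5 were not called. Among all genes tested, 0.558% were called higher and 96.2% were called lower. The 36 proliferation genes themselves split into 11 higher, 19 lower and 6 not called, with values up to 1.36. Rises above the mean were therefore not particular to the members. By log2 difference from the mean, the 8 were EXO1 (0.84, SE 0.09), BRIP1 (0.81, SE 0.13), RAD54L (0.64, SE 0.08), BLM (0.61, SE 0.10), RAD51AP1 (0.52, SE 0.10), BARD1 (0.38, SE 0.11), UBE2T (0.28, SE 0.08) and BRCA2 (0.26, SE 0.11). The 5 not told apart from the mean were BRCA1, XRCC2, FANCB, FANCM and FANCD2, within −0.07 to 0.09. In WT8 the median log2 change was 2.42 for the S phase genes and 2.29 for the G2/M genes. Calls of members close to the mean may therefore depend on the reference, and calls with either list alone are not given here. The 24 lower ones ranged from FANCI (−0.19) to FANCF (−2.79) and included all 4 checkpoint kinases, all 3 MRN genes and PALB2. The median of the 37 was −0.94, against −2.49 for all genes tested.

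Between the shControl groups, 23 members were higher in WT8 relative to proliferation and 11 were lower, beside 91.8% and 4.89% of all genes tested. The 11 fell by more than the proliferation mean, led by BRCA1 (−1.53), BRIP1 (−1.52), BARD1 (−1.30), BLM (−1.10) and EXO1 (−0.95). Of the 36 proliferation genes, 17 were higher and 13 lower on this scale, down to −1.97, so such falls were not particular to the members. With the S phase genes alone as the reference the split of the members was 27 and 5, and with the G2/M genes alone 21 and 14. A change of reference shifts every gene of the table, and shares of all genes are not given for either one. These splits therefore say nothing particular to the members. For the interaction, 9 members were higher and 23 lower, beside 0.54% and 93.5% of all genes and 11 and 17 of the 36 proliferation genes. The 9 were the 8 named for WT8 together with BRCA1 (0.38, adjusted p = 0.000583).

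In 786-O, 5 members were higher relative to proliferation (XRCC2, XRCC3, FANCA, FANCC and FANCL) and 15 were lower, beside 17.1% and 31.8% of all genes tested. Of the 36 proliferation genes, 9 were higher and 14 lower there. Among the members, POLQ (−0.71, SE 0.07) and XRCC3 (0.54, SE 0.09) were at the ends. Between the shBMAL1 groups 12 members were higher and 18 lower, beside 40.2% and 33.3% of all genes tested and 13 and 13 of the 36 proliferation genes. The split of the members became 16 and 13 with the S phase genes alone and 9 and 22 with the G2/M genes alone. Here too the change of reference shifts every gene, and shares of all genes are not given. BRCA1 was still the lowest member there (−1.16, SE 0.06, adjusted p = 6.14e-19).

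Compared per kilobase of the canonical transcript, the order of members depended on the group. In 786-O shControl the highest levels were those of UBE2T (49.5 CPM per kb), NBN (39.1), FANCI (29.8) and MUS81 (29.5), and the lowest those of XRCC2 (1.57) and FANCM (1.70). In WT8 shControl NBN was highest at 26.9 CPM per kb, followed by MUS81 (18.6), ATR (11.02) and RAD50 (9.20), and the lowest were XRCC2 (0.222) and BRIP1 (0.230). In WT8 shBMAL1 UBE2T was again first at 51.3 CPM per kb, followed by FANCI (24.0) and NBN (23.5).

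**Figure D4:**
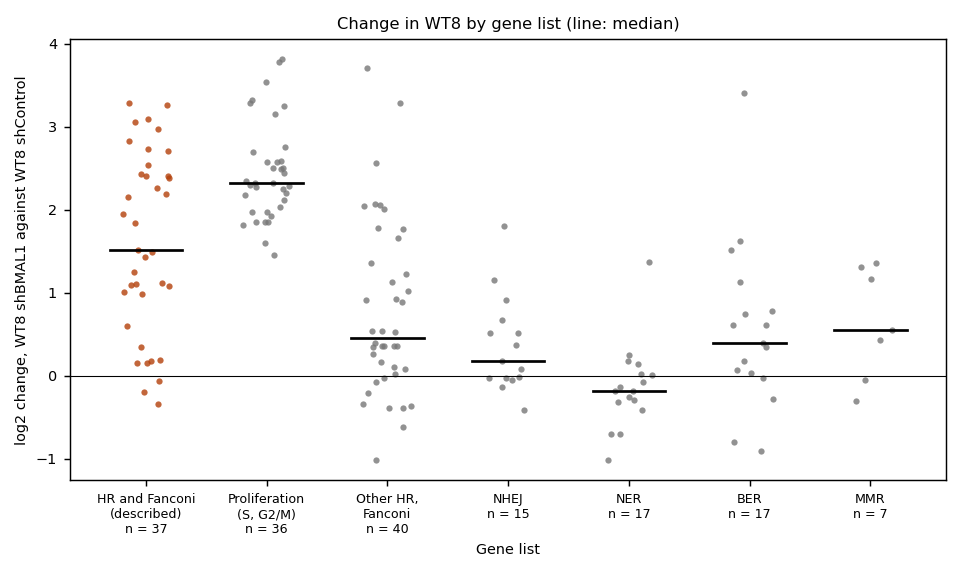
Log2 change in WT8 with shBMAL1 (vertical axis) for each gene (points) of 7 lists, with the list median as a line: the 37 genes described, 36 proliferation genes, 40 other homologous recombination (HR) and Fanconi genes, and genes of non-homologous end joining (NHEJ), nucleotide excision (NER), base excision (BER) and mismatch repair (MMR). Medians are 1.51, 2.33, 0.46, 0.18, −0.18, 0.39 and 0.56 in that order.

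Other genes of the same pathway were taken from a list of 40 that holds no member. In WT8, 27 of the 40 were higher with shBMAL1, 7 were lower and 6 were not called, with a median log2 change of 0.46. Among all 16838 genes tested, 5535 were higher and 6217 lower in that comparison. Of those with enough counts, CLSPN, an adaptor of ATR signalling (log2 change 3.71, SE 0.07, adjusted p = 9.95e-32), and RMI2, a partner of BLM (3.29, SE 0.14, adjusted p = 2.13e-21), were highest, and EME2 (−1.02, SE 0.14, adjusted p = 1.56e-07) and the nuclease FAN1 (−0.62, SE 0.06, adjusted p = 3.34e-11) were lowest. In 786-O 8 of the 40 were higher, 6 were lower and 26 were not called, beside 24.5% higher and 24.4% lower among all genes tested, and the median was 0.00.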

How the data were processed

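RNA-seq was measured in 12 libraries, 4 groups of 3 replicates taken from the GEO labels. According to the methods, the authors used SeqMan NGen to align paired reads to GRCh37 and ArrayStar to export counts, while the submitters' processing notes name STAR, DESeq2 and hg38. Which of these made the table, and the annotation and strand setting used, are not given in the sources used here. The authors deposited expected counts (estimated counts) per gene, 38074 lines for 38021 names, with 0.028 standing in for 0 (47% of values) and 5.67% of the other values not whole. The planned tests had assumed whole counts, so values were rounded, after setting the stand-in to 0 and summing repeated names. A value of 2 occurred 14891 times and a value of 1 occurred 11390 times, so mates of a pair may have been counted separately.

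Of 26938 genes with a count, filterByExpr kept 16838. A mean per group was fitted to all 12 libraries with edgeR 4.0.16 in R 4.3.3 (TMM factors 0.948 to 1.04, robust quasi-likelihood F test), with 5 comparisons, Benjamini-Hochberg adjustment over all 16838 genes and calls at an adjusted p under 0.1. The biological coefficient of variation was 5.7%. SE is the absolute log2 change over the root of F, and intervals are 1.96 SE. The fit relative to proliferation added the mean log2 CPM of 36 genes to the offset. The fits were run on simulated data in which randomly chosen genes changed in WT8 shBMAL1 only, with a common spread for all genes. The proliferation genes as a set were not made to change there. The fit relative to proliferation was therefore not tested with a moving reference. No 2 replicates were alike within sampling noise (chi-square per gene 4.5 to 12.6). An exact permutation test of 3 against 3 cannot go below 0.1 and was not used. Counting error does not cover duplicated reads.

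The 37 members and all gene lists were chosen with earlier results of these data known. The named genes were 27 fixed members, the 3 largest and 3 smallest changes per comparison, members called against the median direction, and up to 4 genes of another list with a mean of at least 50 counts (its largest and smallest changes in WT8). The remaining members are given for completeness. Gene positions and lengths are from GENCODE on GRCh37, promoters from RefSeq on GRCh38.p14, and the builds were not mixed. Alternatives were DESeq2 1.42.0, other scalings, filters and thresholds, a replicate block and leaving out each library. Some marker and repair genes are counted in their lists but not reported here by name.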

Additional observations from a re-analysis of the deposited data

Results flagged for a closer look

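The change with shBMAL1 differed between the lines for 34 of the 37 genes, by the interaction term of the edgeR fit (adjusted p under 0.1, beside 56% of all genes tested). Values are the log2 change in WT8 minus that in 786-O.

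In the BRCA group they were 3.47 for BRIP1, 3.07 for BRCA2, 2.97 for BARD1 and 2.74 for BRCA1. The strand invasion partners had 3.02 (RAD51AP1), 2.96 (RAD54L) and 1.98 (RAD54B). For the genes of the XRCC2 and XRCC3 complexes the values were 2.12 for XRCC2, 1.32 for XRCC3, 1.23 for RAD51C, 0.75 for RAD51D and 0.65 for RAD51B.

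In the Fanconi core complex the interaction was 2.35 for FANCB, 2.17 for FANCG, 2.13 for FANCM, 1.86 for FANCA, 1.17 for FANCE, 1.12 for FANCL and 0.73 for FANCC, and it was −0.43 for FANCF. UBE2T had 2.63, FANCI 2.42 and FANCD2 2.32.

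Among helicases, nucleases and the end joining polymerase the values were 3.30 for BLM, 3.16 for EXO1, 2.11 for POLQ, 1.20 for EME1 and 0.48 for SLX4. The MRN genes had 1.06 (MRE11A), 0.37 (RAD50) and 0.14 (NBN), and the kinases 2.20 (CHEK1), 0.95 (CHEK2) and 0.15 (ATR). The calls of NBN (adjusted p = 0.0723) and ATR (adjusted p = 0.0793) were the weakest and were lost with DESeq2 (0.117 and 0.130), with its size factors (0.112 and 0.119) and with library totals (0.107 and 0.114), and FANCF (adjusted p = 0.0228) was the only one below 0. The proliferation genes differed between the lines in the same direction, 36 of 36 with a median of 2.30. Their part in the values of single genes was not tested beyond the fit relative to proliferation. In that fit 9 of the 37 were higher and 23 lower, beside 11 and 17 of the 36 proliferation genes.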

How the results depend on the processing

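In the fits not relative to proliferation, no called change of a single gene turned direction. Single genes were not compared in this way in the fits relative to proliferation. The median of the 37 genes in 786-O, 0.03, became −0.013 without shBMAL1 replicate 3 and −0.0041 without shControl replicate 3, and the split relative to proliferation between the shBMAL1 groups turned with the S phase genes alone, as given above. Of 3663 values of single members under the alternatives to the fits not relative to proliferation, 3512 kept their direction and side of the threshold. A further 18 passed it anew and 133 lost it, 60 of these under a 1.5-fold minimum. That minimum left 2 members called in 786-O (1 higher, 1 lower) and 6 between the shBMAL1 groups (all lower in WT8), since it removes small changes by construction. Without TMM all log2 differences between the lines shift upward, by 0.12 with shControl and 0.10 with shBMAL1, and the medians became −1.67 and −0.092. The same setting ended the calls of BLM, EXO1, FANCC and FANCI between the shBMAL1 groups (adjusted p = 0.124, 0.127, 0.333 and 0.415). DESeq2 called 20 members in 786-O and 36 in WT8, against 19 and 36.

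Leaving out 1 library at a time, the median log2 change ran from −0.013 to 0.051 in 786-O, 1.48 to 1.60 in WT8, −1.85 to −1.65 between the shControl groups, −0.20 to −0.17 between the shBMAL1 groups and 1.82 to 1.93 for the interaction. Beside the losses given above, FANCC between the shBMAL1 groups lost its call without 786-O shBMAL1 replicate 3 (adjusted p = 0.121), FANCM there without WT8 shBMAL1 replicate 3 (0.188), and the interactions of NBN without any one of 6 (0.103 to 0.205) and ATR without any one of 5 (0.112 to 0.237). RAD51B passed the test in 786-O without shControl replicate 1 or shBMAL1 replicate 2 (0.0324 and 0.0833).

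Samples that share a replicate number did not deviate together (r −0.0364 to 0.0383 over 18 pairs, 0 above 0.1), so the number was not used for pairing. With the replicate block, 18 members were called in 786-O and 36 in WT8, and the calls of ATM in 786-O, ATR between the shControl groups and RAD51AP1 between the shBMAL1 groups were lost (adjusted p = 0.109, 0.112 and 0.114).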

Other observations

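The other DNA repair routes had lower medians than the 37 genes in WT8, as a description of each list. Of all 16838 genes tested, 5535 were higher and 6217 lower with shBMAL1 in WT8, and 4131 were higher and 4103 lower in 786-O. Of 15 genes of non-homologous end joining, which rejoins broken ends without a template, 9 were higher with shBMAL1 in WT8, 1 was lower and 5 were not called, with a median log2 change of 0.18. XRCC4 (1.81, SE 0.13, adjusted p = 9.40e-15) and APLF (1.16, SE 0.18, adjusted p = 8.34e-07) were highest and POLM (−0.41, SE 0.11, adjusted p = 0.00144) was lowest. In 786-O, 3 of these 15 were higher and 7 were lower (median −0.14).

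Nucleotide excision repair, which removes bulky and ultraviolet damage, had a median below 0 in WT8. Of 17 genes, 4 were higher and 10 lower (median −0.18), from CETN2 (−1.02, SE 0.07, adjusted p = 2.41e-15) and the damage sensor XPC (−0.71, SE 0.07, adjusted p = 5.08e-11) to DDB2 (1.37, SE 0.10, adjusted p = 9.21e-15). In 786-O, 3 were higher and 10 lower (median −0.23).

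Base excision repair, which replaces single damaged bases, had 10 of 17 genes higher and 3 lower in WT8 (median 0.39), with NEIL3 (3.41, SE 0.17, adjusted p = 3.84e-19) and UNG (1.62, SE 0.06, adjusted p = 1.34e-22) at the top and NEIL1 (−0.91, SE 0.22, adjusted p = 5.70e-04) and NEIL2 (−0.80, SE 0.12, adjusted p = 3.07e-07) at the bottom. Of 7 mismatch repair genes, 5 were higher and 1 lower in WT8 (median 0.56). In 786-O these 2 lists had medians of −0.01 and 0.05.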
